A study of Mus musculus with 24 samples.

Results

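Collagens are the triple-helical proteins of the extracellular matrix. The genes described here are the 40 protein-coding mouse genes named Col, a number, the letter a and a number that averaged at least 1 CPM, the usual count unit scaled to library size, over 24 pituitary RNA sequencing libraries. They were taken from 44 such genes in a count table of 35191 genes, and the choice used only the symbol and the mean level. Each of 8 groups held 3 libraries: Egr1cKO, Egr1cKO control, Cre control and wild type pituitaries of females, and the same of males. The Egr1cKO libraries carry floxed Egr1 and Cre, the Egr1cKO control libraries floxed Egr1 without Cre, the Cre control libraries Cre without floxed Egr1, and the wild type libraries neither. The protein of Egr1 is a DNA-binding factor switched on early by many stimuli. Sources used here do not give the Cre driver, the exon meant to be lost, the strain or the age. The study is titled as one of sex differences in the pituitary of Egr1cKO mice, and the comparisons below follow from its groups.

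Collagen chains are made in the endoplasmic reticulum, where their prolines and lysines are hydroxylated, wind into trimers and are secreted. Fibrillar collagens are then trimmed and packed into the fibrils that carry tension, type IV collagens form the sheet-like network of basement membranes, fibril-associated collagens sit on the fibrils, and transmembrane collagens stay anchored in the cell surface. In the pituitary, collagen lies in the capsule, in the thin septa between endocrine cords and around the capillaries, and in the rat it is known to be made by pericytes among other stromal cells.

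The totals behind CPM were scaled by the trimmed mean of M-values (TMM). Total counts ran from 15486069 to 26255343 per library. A gene is called where edgeR's quasi-likelihood test gave an adjusted p under 0.05 over 21927 tested genes; all 40 collagen genes were tested. Female wild type replicate 1 stood apart from the other female wild type libraries: mitochondrial genes took 10.1% of its counts, against 2.14% and 2.695% in replicates 2 and 3, and 18609 genes were detected in it at equal depth, against 23620 and 24765. It did not stand apart from the female Egr1cKO libraries, which had 8.73% to 10.4% and 18441 to 20445 genes. Female Egr1cKO control replicate 2 had 6.87% and 19856 genes. The fits that leave out only the wild type library keep all of these. Values that use the female wild type group are therefore given with and without its replicate 1. This holds for log2 fold changes and edgeR calls of collagen genes, and of other genes in the comparison of Cre-carrying with Cre-free pituitaries. Group levels, overlaps and the other counts keep that library. Fits without it tested 23210 genes, and their adjusted p and shares of all genes are taken over these. Without female wild type replicate 1, female wild type and female Cre control do not overlap in either measure. Fits without it therefore cannot tell the Cre effect in females from library quality. Egr1 itself was not lower in the Egr1cKO libraries: it ran from 7.55 to 162 CPM in female Egr1cKO, against 9.79 to 34.2 CPM in female Egr1cKO control, and from 58.3 to 238 CPM in male Egr1cKO, against 22.7 to 51.1 CPM in male Egr1cKO control, so the female ranges overlapped and all male Egr1cKO libraries lay above their controls. Whether an exon was lost cannot be read from counts per gene. The library titles carry numbers of one series for the floxed groups and of another for the unfloxed groups, so an effect of the floxed allele by itself and of the title series cannot be told apart. Comparisons were therefore made within a series, Egr1cKO against Egr1cKO control (the Egr1cKO effect) and Cre control against wild type (the Cre effect), and as the mean of both (Cre-carrying against Cre-free). The labels do not say which libraries came from separate animals beyond those title numbers, and p-values measure the spread between these libraries. The labels give pituitary as the tissue and endocrine as the cell type, and the hormone and pituitary marker genes Gh, Prl, Pomc, Tshb, Fshb, Cga, Gnrhr and Pou1f1 summed to between 95637 and 425915 CPM. That sum was 95637 to 145991 CPM in male Cre control, against 244216 to 366089 CPM in male wild type. The other pairs of groups overlapped. The part of that sum in the collagen values was not tested. In bulk libraries, fewer cells of a type and less RNA per cell cannot be told apart.

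The pituitary libraries held mRNA of nearly every collagen type. Together the 40 genes took between 0.0694% and 0.158% of all counts in a library. Per kilobase of annotated exon, Col1a2 was the highest at a mean of 18.9 CPM per kb over the 24 libraries, followed by the transmembrane collagen gene Col13a1 at 11.5, the fibrillar Col27a1 at 10.1 and the basement membrane gene Col4a1 at 7.58 CPM per kb. Col1a1, the partner of Col1a2 in type I collagen, had 4.94 CPM per kb. That order differed between groups. In male Egr1cKO, Col13a1 at 13.3 CPM per kb stood above Col1a2 at 9.94, and in male Cre control it was 12.8, beside 9.77 for Col1a2; in the other 6 groups Col1a2 was the highest. Col27a1 ranged from 1.92 CPM per kb in male Egr1cKO to 22.5 in female Egr1cKO control, and was under Col4a1 in the 4 Cre-carrying groups. Over the 24 libraries Col25a1 (6.15), Col23a1 (5.97), Col4a2 (5.83), Col24a1 (5.35) and Col6a1 (5.11) lay between, and the lowest was Col6a4 at 0.194 CPM per kb. The genes just inside the limit of 1 CPM were Col6a4, Col26a1 and Col28a1, at means of 1.65, 1.93 and 2.03 CPM, and those outside it were Col22a1 (0.625 CPM), Col6a6 (0.365), Col6a5 (0.342) and Col10a1 (0.131). By class, the 40 are 11 fibrillar, 6 basement membrane, 4 type VI, 8 fibril-associated, 2 short-chain, 2 multiplexin, 4 transmembrane, 1 anchoring fibril and 2 other genes.

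**Figure D1:**
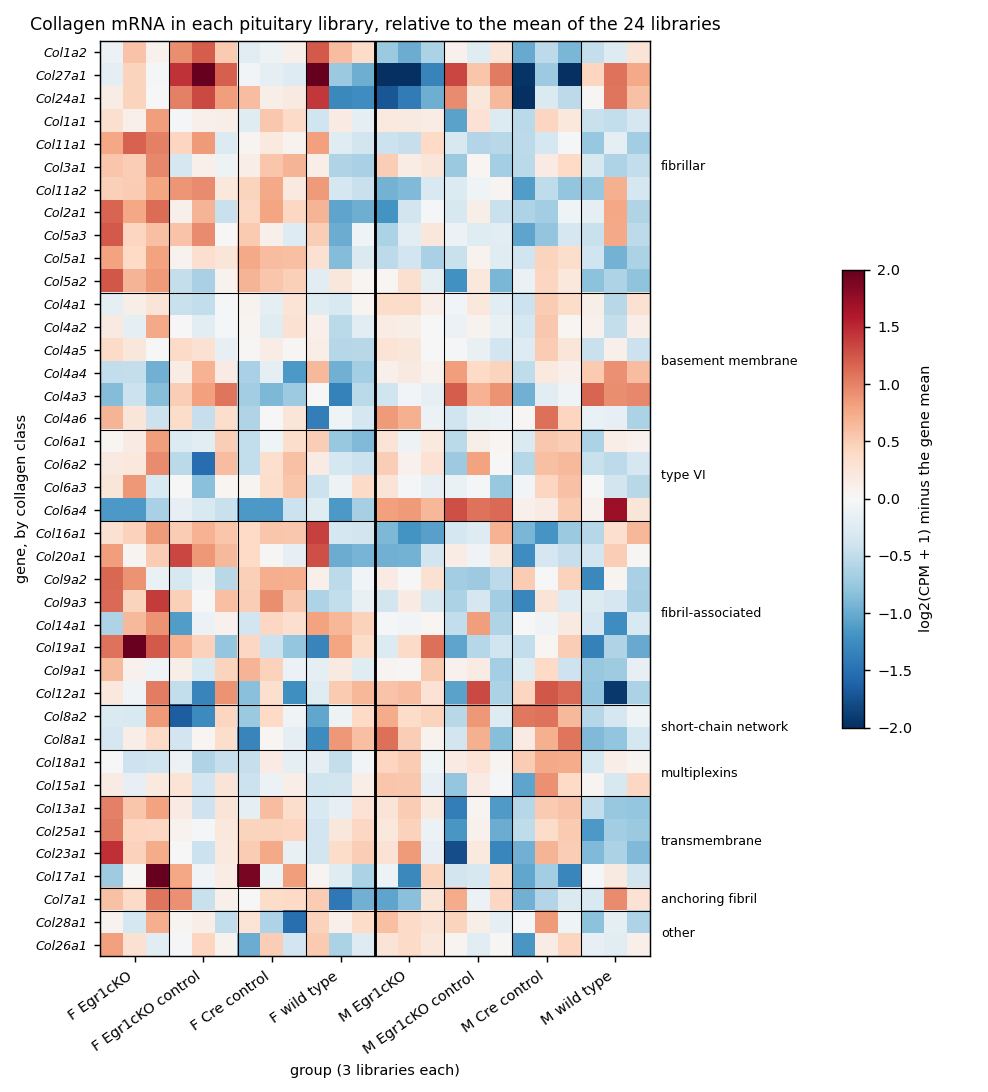
Each column is 1 of the 24 libraries and each row 1 of the 40 collagen genes, grouped by class and, within a class, from the highest to the lowest level per kilobase; colour gives log2(CPM + 1) minus the mean of that gene, with values past 2 in either direction drawn at the limit. Col4a3, Col27a1 and Col24a1 are blue in male Egr1cKO and Cre control and red in male Egr1cKO control and wild type, and the first column of the female wild type block differs from the other columns of its group in Col27a1, Col24a1 and Col16a1.

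Pituitaries that carried Cre differed from Cre-free ones in 8 collagen genes in each sex, 20% of the 40, beside 8.85% of all genes called in females and 2.16% in males. In females, Col3a1, Col9a2, Col5a2, Col9a3 and Col5a1 were higher and Col1a2, Col4a3 and Col4a4 lower. In males, Col25a1, Col13a1 and Col9a2 were higher and Col4a3, Col27a1, Col16a1, Col1a2 and Col24a1 lower. The 5 higher genes in females are 12.5% of the 40, where 3.29% of all tested genes were called higher, and the 3 lower genes are 7.5%, where 5.56% of all genes were called lower. In males the 3 higher genes are 7.5%, beside 0.775% of all genes, and the 5 lower ones 12.5%, beside 1.38%. The median log2 fold change, Cre-carrying over Cre-free, of the 40 genes was 0.30 in females and 0.33 in males, beside -0.06 and 0.02 for all genes; without female wild type replicate 1 the female median was 0.37, beside -0.05 for all genes. Scaling by library totals instead of TMM moved the median of all genes in males by 0.23 and left the sign of the 40 genes in both averaged effects as it was. In females 13 of the 40 had an unadjusted p under 0.05, beside 25.3% of all genes, and in males 23, which is 57.5%, beside 17%. Within a single title series the calls were few. The Egr1cKO effect in females called 2 of the 40, beside 2.21% of all genes: Col5a2 was higher, beside 0.762% of all genes, and Col4a3 lower, beside 1.45%; 11 had an unadjusted p under 0.05, beside 19.3%. In males edgeR called none of the 40, beside 0% of all genes higher and 0.041% lower, and 11 had an unadjusted p under 0.05, beside 6.57%; DESeq2 called 2, and edgeR called 1 without male Egr1cKO control replicate 2. The Cre effect in males called Col4a3 lower, beside 0.196% of all genes, and none higher, beside 0.0365%; 21 had an unadjusted p under 0.05, which is 52.5%, beside 10.8%. For the Cre effect in females edgeR called 0 of the 40, where 1.21% of all genes were called, 0.369% as higher and 0.839% as lower; 6 had an unadjusted p under 0.05, beside 16.8%, and DESeq2 called 2. Each averaged effect is made of the single effects and adds libraries, not another experiment.

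The libraries of a pair of groups did not overlap for some genes whether or not they were called. In the Egr1cKO effect in females 8 of the 40 were higher without overlap, beside 9.57% of all genes, and 5 lower, beside 11.9%, and in males 7 were higher, beside 10.8%, and 9 lower, beside 10.2%. In the Cre effect in females 6 were higher without overlap, beside 8.02%, and 2 lower, beside 6.83%, and in males 11 were higher, beside 11.1%, and 7 lower, beside 10.5%. Over all 12 libraries of a sex, 4 were higher in females, beside 1.25%, and 0 lower, beside 1.43%; in males 1 was higher, beside 2.03%, and 6 lower, beside 2.77%.

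Single libraries moved the counts of calls. The 8 calls in females became 5 without female Egr1cKO control replicate 2 and 11 without female wild type replicate 1. In males the 8 became 2 without male Egr1cKO replicate 2 or male Egr1cKO control replicate 3, 3 without male Cre control replicate 3, 4 without male Egr1cKO control replicate 1 or male wild type replicate 3, and 12 without male Egr1cKO control replicate 2. Without female wild type replicate 1, the averaged effect in females had 9 genes higher, beside 7.56% of all genes, and 2 lower, beside 11.6%: Col11a1, Col2a1, Col6a1 and Col7a1 joined the higher genes and Col4a4 left the lower ones. The Cre effect in females then had 7 genes higher, beside 6.65% of all genes, and 0 lower, beside 8.88%; the 7 were Col16a1, Col20a1, Col24a1, Col2a1, Col3a1, Col5a1 and Col7a1.

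**Figure D2:**
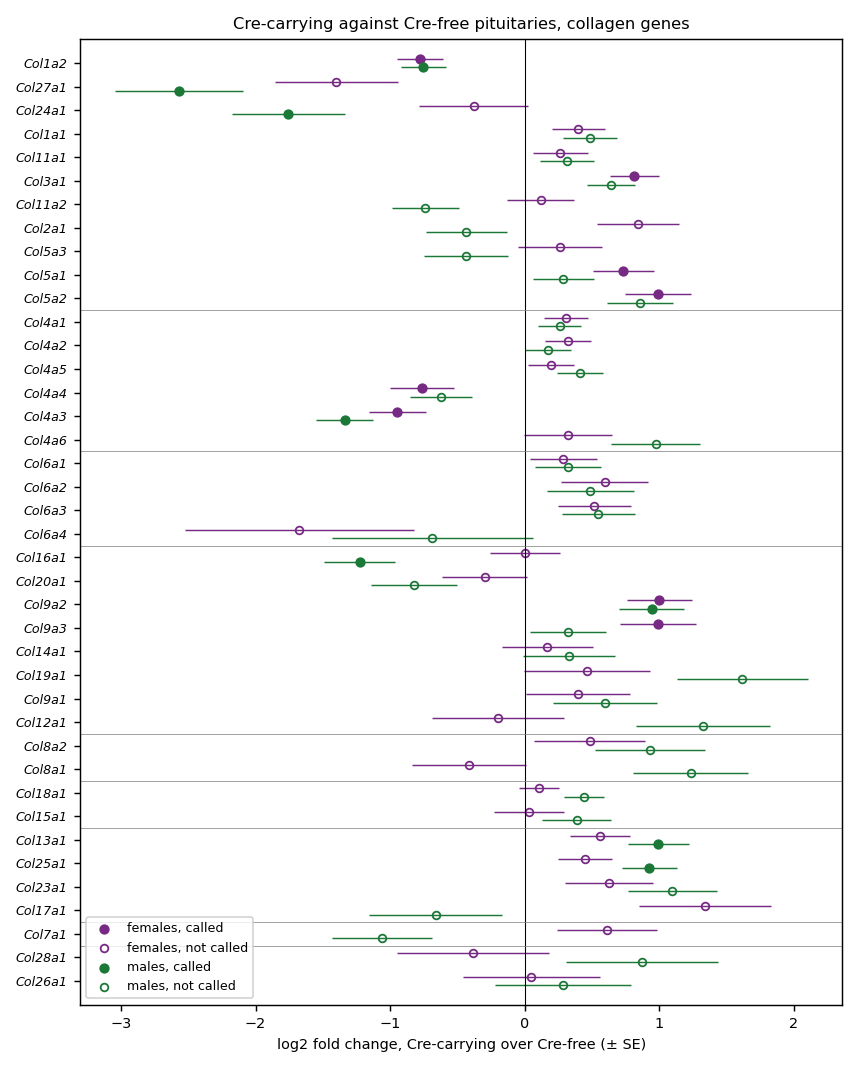
Points give the log2 fold change of Cre-carrying over Cre-free pituitaries, the mean of the Egr1cKO and Cre effects, in females and males, with bars of 1 standard error; filled points are called by edgeR and open ones are not. Col1a2, Col4a3 and Col9a2 are filled in both sexes, and the male points of Col27a1 and Col24a1 lie furthest to the left of the called ones.

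Among fibrillar collagens, Col1a2 was lower with Cre in both sexes and Col1a1 was called in neither; the difference between these type I genes was not tested. Gene coordinates are of GRCm38. Col1a2 (ENSMUSG00000029661, chr6:4504814-4541544, plus strand) and Col1a1 (ENSMUSG00000001506, chr11:94936224-94953042, plus strand) encode the chains that trimerise into type I collagen, the main fibril collagen of connective tissue. In females, Col1a2 measured 196, 316 and 225 CPM in Egr1cKO, against 406, 493 and 306 CPM in Egr1cKO control. The Cre control libraries had 184, 198 and 229 CPM, against 497, 327 and 275 CPM in wild type. The female Cre control libraries all lay under the wild type ones, and the highest Egr1cKO library passed the lowest Egr1cKO control library. Male Egr1cKO libraries had 127, 106 and 137 CPM of Col1a2, against 225, 180.4 and 251.4 CPM in male Egr1cKO control. Male Cre control had 105, 147 and 112 CPM, against 152, 178 and 253 CPM in male wild type. All 6 Cre-carrying male libraries were below all 6 Cre-free ones, by a narrow margin between Cre control replicate 2 and wild type replicate 1. Averaged over both title series, the log2 difference of Col1a2 came to -0.78 (SE 0.169, edgeR adjusted p = 0.00536) in females and -0.75 (SE 0.169, edgeR adjusted p = 0.0161) in males. Its female value was -0.64 (SE 0.149, edgeR adjusted p = 0.00323) without female wild type replicate 1. The female call held in 12 of 12 fits that left out 1 library. The male call held in 8, and was lost without male Cre control replicate 3, male Egr1cKO replicate 2, male Egr1cKO control replicate 3 or male wild type replicate 3, with an edgeR adjusted p of up to 0.0632 without Egr1cKO replicate 2. Scaling by library totals instead of TMM lost the male call as well (edgeR adjusted p = 0.0607).

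Col1a1 measured 39.3, 33.5 and 56.3 CPM in female Egr1cKO, against 30.2, 33.6 and 34.3 CPM in female Egr1cKO control, with 26.2, 45.5 and 41.0 CPM in female Cre control, against 23.4, 34.96 and 27.1 CPM in female wild type. In males it had 35.9, 35.5 and 34.7 CPM in Egr1cKO, against 14.2, 38.3 and 25.5 CPM in Egr1cKO control, and 21.1, 42.1 and 36.2 CPM in Cre control, against 22.7, 21.9 and 24.3 CPM in wild type. All 4 pairs of groups overlapped, with averaged log2 changes of 0.40 (SE 0.198, edgeR adjusted p = 0.208) in females, 0.34 without female wild type replicate 1, and 0.49 (SE 0.199, edgeR adjusted p = 0.201) in males. The ratio of Col1a2 to Col1a1 CPM was 6.13 ± 2.89 in female Egr1cKO, against 12.4 ± 3.03 in female Egr1cKO control, and 5.66 ± 1.34 in female Cre control, against 13.6 ± 6.68 in female wild type (SD, n = 3 each), where replicate 1 had 21.3 and replicates 2 and 3 had 9.36 and 10.2. In males it was 3.495 ± 0.477 in Egr1cKO, against 10.1 ± 5.54 in Egr1cKO control, and 3.86 ± 0.984 in Cre control, against 8.43 ± 1.87 in wild type. Prl, the hormone gene of lactotropes, moved in the same direction as Col1a2: its means were 38585 CPM in female Egr1cKO, against 114715 in female Egr1cKO control, 65522 in female Cre control, against 134807 in female wild type, 5573 in male Egr1cKO, against 33699 in male Egr1cKO control, and 3630 in male Cre control, against 40057 CPM in male wild type. Prl was not the only hormone or pituitary marker gene that moved in that direction, and others moved in the opposite one. The part of lactotrope RNA in the Col1a2 level was not tested.

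The start regions of Col1a2 and of the type III gene Col3a1 are shown because these fibrillar genes moved in opposite directions. They are RefSeq sequences of GRCm38.p6 from 250 bases before to 50 bases after the start site, at chr6:4505368-4505667, plus strand, and chr1:45311288-45311587, plus strand. Capitals mark GGGCGG, the letters of a GC box, CCAAT on either strand (ATTGG where it is on the other strand) and TATAAA, the letters of a TATA box.
Col1a2: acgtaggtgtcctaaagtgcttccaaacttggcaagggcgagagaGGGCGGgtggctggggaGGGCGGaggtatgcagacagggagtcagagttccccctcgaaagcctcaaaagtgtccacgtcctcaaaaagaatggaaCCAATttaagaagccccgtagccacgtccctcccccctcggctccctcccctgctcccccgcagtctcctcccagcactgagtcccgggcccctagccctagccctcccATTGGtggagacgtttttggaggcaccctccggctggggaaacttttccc
Col3a1: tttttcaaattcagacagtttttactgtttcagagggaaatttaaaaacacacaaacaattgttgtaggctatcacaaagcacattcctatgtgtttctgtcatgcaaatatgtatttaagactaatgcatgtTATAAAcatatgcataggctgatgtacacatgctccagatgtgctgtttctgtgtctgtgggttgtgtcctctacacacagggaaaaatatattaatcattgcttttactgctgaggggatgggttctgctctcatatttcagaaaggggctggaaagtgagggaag
The Col1a2 window held GGGCGG at a pair of places and CCAAT once on each strand, and the Col3a1 window held TATAAA at position -117 from the start site and none of the other motifs searched. RefSeq start regions were matched for 32 of the 40 genes, 35 windows in all, and each motif was searched on both strands. GGGCGG was in 21 of the 35, which is 60%, beside 35.7% of 32851 mouse windows of the same length; CCAAT was in 37.1%, beside 37.4%, and TATAAA in 11.4%, beside 13.6%. The EGR1 motif GCGTGGGCG was in 0 of the 35, beside 0.612% of all windows, and its variant GCGGGGGCG, which can overlap GGGCGG and does so in the window of Col8a1, was in 1 window, that of Col8a1, beside 2.91%. A match of letters is a description and not a bound site.

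Col3a1, Col5a2 and Col5a1 were higher with Cre in females. Col3a1 (ENSMUSG00000026043, chr1:45311538-45349706, plus strand) encodes type III collagen, which shares fibrils with type I, and Col5a2 (ENSMUSG00000026042, chr1:45374321-45503282, minus strand) and Col5a1 (ENSMUSG00000026837, chr2:27886425-28039514, plus strand) encode type V chains, which start fibrils and set their width. Col3a1 measured 52.4, 50.2 and 69.9 CPM in female Egr1cKO, against 28.0, 38.1 and 32.9 CPM in female Egr1cKO control. In female Cre control it had 38.9, 52.6 and 57.1 CPM, against 38.7, 22.9 and 22.2 CPM in female wild type. Each female Cre-carrying library was above each Cre-free one, by a narrow margin between Cre control replicate 1 and wild type replicate 1. Males had 50.03, 39.1 and 42.0 CPM in Egr1cKO, against 20.8, 36.4 and 21.8 CPM in Egr1cKO control, and 24.2, 39.8 and 46.7 CPM in Cre control, against 28.1, 22.9 and 24.8 CPM in wild type. Male Cre control replicate 1 lay among the wild type libraries. On the log2 scale the averaged change of Col3a1 amounted to 0.82 (SE 0.18, edgeR adjusted p = 0.0061) in females, or 0.97 (SE 0.168, edgeR adjusted p = 0.000201) without female wild type replicate 1, and the call held in 12 of 12 fits that left out 1 library. In males it was 0.64 (SE 0.18, edgeR adjusted p = 0.0567) and was not called. Col3a1 was called by no single effect.

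Col5a2 lies tail to tail with Col3a1, with 24615 bases between the gene ends. It had 20.7, 13.8 and 15.6 CPM in female Egr1cKO, against 5.58, 4.86 and 8.64 CPM in female Egr1cKO control. Female Cre control had 13.7, 12.5 and 11.8 CPM, against 6.95, 9.80 and 8.45 CPM in female wild type. The Cre-carrying females stood above the Cre-free ones without overlap. In males Col5a2 had 8.44, 10.5 and 7.02 CPM in Egr1cKO, against 2.96, 9.66 and 3.88 CPM in Egr1cKO control, and 7.36, 11.4 and 9.63 CPM in Cre control, against 4.20, 4.98 and 4.28 CPM in wild type; male Egr1cKO control replicate 2 lay among the Egr1cKO libraries. The averaged change in log2 units came to 0.99 (SE 0.243, edgeR adjusted p = 0.0128) in females, called in 12 of 12 fits that left out 1 library and 0.93 (SE 0.251, edgeR adjusted p = 0.00965) without female wild type replicate 1. It was 0.86 (SE 0.245, edgeR adjusted p = 0.0602) in males. The Egr1cKO effect in females alone was 1.39 (SE 0.346, edgeR adjusted p = 0.0331) and was lost without female Egr1cKO replicate 1 or 3 or female Egr1cKO control replicate 1 or 2, with an edgeR adjusted p of up to 0.146 without control replicate 2. Col5a1 averaged 12.7 ± 2.07 CPM in female Egr1cKO, against 8.98 ± 0.870 CPM in female Egr1cKO control, and 12.5 ± 0.805 CPM in female Cre control, against 6.45 ± 2.98 CPM in female wild type (SD, n = 3 each). Its averaged log2 change reached 0.73 (SE 0.227, edgeR adjusted p = 0.0427), or 0.93 (SE 0.225, edgeR adjusted p = 0.00424) without female wild type replicate 1. The Col5a1 call held in only 2 of 12 fits that left out 1 library, those without female Egr1cKO replicate 2 or female wild type replicate 1, and the edgeR adjusted p reached 0.115 without female wild type replicate 2. It was also lost with median-of-ratios factors, with no filter on low counts and with only the groups compared. The same held with genes detected or the mitochondrial share as covariate. Over these fits the edgeR adjusted p reached 0.194.

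Col27a1 and Col24a1 fell with Cre in males. Col27a1 (ENSMUSG00000045672, chr4:63214004-63334991, plus strand) and Col24a1 (ENSMUSG00000028197, chr3:145292472-145552011, plus strand) encode fibrillar collagens with interrupted triple helices, known from cartilage and bone. In male Egr1cKO, Col27a1 measured 18.9, 21.1 and 35.1 CPM, against 228, 133 and 187 CPM in male Egr1cKO control. In male Cre control it had 22.3, 53.9 and 20.1 CPM, against 122, 192 and 153 CPM in male wild type. Every Cre-carrying male library was far below every Cre-free one. Female libraries had 78.5, 123 and 88.4 CPM in Egr1cKO, against 246, 427 and 208 CPM in Egr1cKO control, and 86.4, 79.4 and 74.9 CPM in Cre control, against 451, 53.5 and 45.4 CPM in wild type. The female Egr1cKO libraries were below their controls without overlap, whereas female wild type replicate 1 was the highest of all 24 libraries and replicates 2 and 3 lay under every female Cre control library. By edgeR the averaged log2 change of Col27a1 in males stood at -2.57 (SE 0.475, edgeR adjusted p = 0.00809) and was called in 12 of 12 fits that left out 1 library. Its female value was -1.40 (SE 0.456, edgeR adjusted p = 0.0639), and -0.45 (SE 0.267, edgeR adjusted p = 0.253) without female wild type replicate 1.

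Col24a1 measured 9.45, 11.99 and 16.3 CPM in male Egr1cKO, against 65.3, 39.1 and 52.9 CPM in male Egr1cKO control. Male Cre control had 6.66, 27.0 and 22.9 CPM, against 33.7, 71.1 and 50.7 CPM in male wild type. Again the Cre-carrying males lay under the Cre-free ones without overlap. In females it had 37.1, 45.6 and 33.6 CPM in Egr1cKO, against 68.0, 84.3 and 60.2 CPM in Egr1cKO control, and 51.6, 36.4 and 37.8 CPM in Cre control, against 90.4, 13.0 and 13.5 CPM in wild type. As for Col27a1, female wild type replicate 1 was above, and replicates 2 and 3 below, all female Cre control libraries. Averaged over both title series, the log2 difference of Col24a1 in males came to -1.76 (SE 0.42, edgeR adjusted p = 0.0347). That call held in 2 of 12 fits that left out 1 library, without male Egr1cKO control replicate 2 or male wild type replicate 1, with an edgeR adjusted p of up to 0.116 without male Egr1cKO replicate 1. It was also lost with genes detected at equal depth as a covariate (edgeR adjusted p = 0.0787). In females the value was -0.38 (SE 0.407, edgeR adjusted p = 0.61), and it turned to 0.40 (SE 0.277, edgeR adjusted p = 0.343) without female wild type replicate 1. Of the 11 fibrillar genes, 3 were higher, 1 lower and 7 not called in females, with a median log2 fold change of 0.26, and without female wild type replicate 1 they were 5 higher and 1 lower, with a median of 0.50; in males 0 were higher, 3 lower and 8 not called, with a median of -0.43. The remaining fibrillar genes Col5a3 and Col11a2 had log2 fold changes of 0.26 and 0.12 in females, 0.50 and 0.41 without female wild type replicate 1, and -0.43 and -0.74 in males, with no call in any of these fits. Col2a1 and Col11a1, cartilage fibril genes, had -0.43 and 0.31 in males and female values of 0.84 (SE 0.302, edgeR adjusted p = 0.0811) and 0.26 (SE 0.203, edgeR adjusted p = 0.443). Without female wild type replicate 1 they were called, at 1.27 (SE 0.254, edgeR adjusted p = 0.00133) and 0.51 (SE 0.175, edgeR adjusted p = 0.0434).

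**Figure D3:**
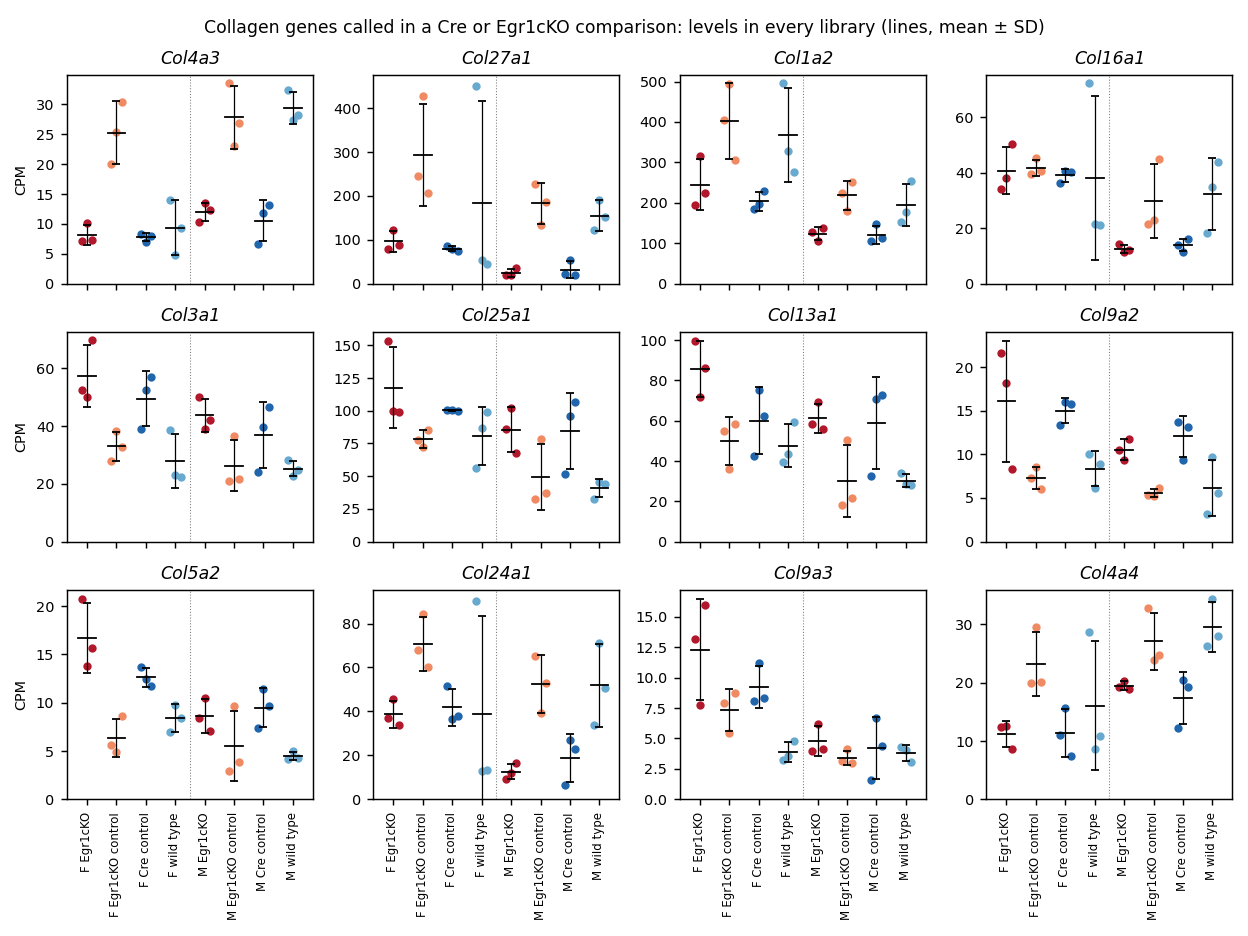
Each panel plots CPM of 1 collagen gene in the 3 libraries of each of the 8 groups, with a line and bar for the mean ± SD; F is female, M is male, and the axes start at 0. In males the Egr1cKO and Cre control points of Col4a3, Col27a1 and Col24a1 lie under those of Egr1cKO control and wild type, and the female wild type bars of Col27a1, Col16a1 and Col24a1 are long because replicate 1 stands high.

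Among basement membrane collagens, Col4a3 was lower with Cre in both sexes and had the smallest p of the 40 genes in males, in both single effects and in their mean. Col4a3 (ENSMUSG00000079465, chr1:82586921-82722059, plus strand) and Col4a4 (ENSMUSG00000067158, chr1:82448423-82586849, minus strand) encode chains that trimerise with the Col4a5 chain, best known from the basement membrane of the kidney glomerulus. The Col4a3 libraries measured 7.19, 10.1 and 7.29 CPM in female Egr1cKO, against 20.01, 25.4 and 30.4 CPM in female Egr1cKO control. Female Cre control had 8.25, 7.04 and 8.04 CPM, against 14.0, 4.85 and 9.31 CPM in female wild type. The Egr1cKO libraries lay well under their controls, whereas female Cre control and wild type overlapped at a low level. In males Col4a3 had 10.4, 13.4 and 12.3 CPM in Egr1cKO, against 33.5, 23.1 and 26.8 CPM in Egr1cKO control. Male Cre control had 6.71, 11.8 and 13.2 CPM, against 32.3, 27.3 and 28.3 CPM in male wild type. Both Cre-carrying male groups lay under both Cre-free groups, with a wide gap between them. On the log2 scale the averaged change of Col4a3 amounted to -0.95 (SE 0.211, edgeR adjusted p = 0.00641) in females, or -0.75 (SE 0.193, edgeR adjusted p = 0.00687) without female wild type replicate 1, and -1.34 (SE 0.209, edgeR adjusted p = 0.000692) in males. Both calls held in 12 of 12 fits that left out 1 library. The Egr1cKO effect was -1.62 (SE 0.3, edgeR adjusted p = 0.00392) in females, called in 6 of 6 such fits, and -1.21 (SE 0.295, edgeR adjusted p = 0.168) in males. The Cre effect was -1.47 (SE 0.297, edgeR adjusted p = 0.0286) in males and -0.27 (SE 0.298, edgeR adjusted p = 0.714) in females, where it turned to 0.13 without female wild type replicate 1. The male Cre call was lost without any 1 of the 6 libraries, with an edgeR adjusted p of up to 0.14 without male wild type replicate 1.

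Col4a4 was called lower in females and not called in males. It had 12.5, 12.6 and 8.70 CPM in female Egr1cKO, against 19.9, 29.6 and 20.05 CPM in female Egr1cKO control. Female Cre control had 11.04, 15.7 and 7.51 CPM, against 28.7, 8.72 and 10.8 CPM in female wild type. Replicate 1 stood high in female wild type, and the other libraries of that group lay among the Cre control ones. In males it had 19.3, 20.3 and 18.9 CPM in Egr1cKO, against 32.8, 23.9 and 24.7 CPM in Egr1cKO control, and 12.2, 20.5 and 19.2 CPM in Cre control, against 26.2, 34.4 and 27.9 CPM in wild type, without overlap in either pair. The averaged change in log2 units came to -0.76 (SE 0.236, edgeR adjusted p = 0.0421) in females and -0.62 (SE 0.233, edgeR adjusted p = 0.162) in males. The female value was -0.41 (SE 0.187, edgeR adjusted p = 0.124) without female wild type replicate 1, and the call held in 4 of 12 fits that left out 1 library, those without female Cre control replicate 2, female Egr1cKO control replicate 1, female wild type replicate 2 or female wild type replicate 3. It was also lost with library totals without TMM and with only the groups compared, at an edgeR adjusted p of up to 0.156.

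Type IV genes lie in head-to-head pairs, and the shared start regions of the pairs that moved and that did not are shown. The start sites of Col4a4 and Col4a3 are 72 bases apart, those of Col4a1 and Col4a2 21 bases, and those of Col4a6 and Col4a5 1309 bases. The sequences are RefSeq windows of GRCm38.p6 at chr1:82586800-82587099, minus strand, and chr8:11312777-11313076, minus strand, and capitals mark the stretch from one start site to the other.
Col4a4: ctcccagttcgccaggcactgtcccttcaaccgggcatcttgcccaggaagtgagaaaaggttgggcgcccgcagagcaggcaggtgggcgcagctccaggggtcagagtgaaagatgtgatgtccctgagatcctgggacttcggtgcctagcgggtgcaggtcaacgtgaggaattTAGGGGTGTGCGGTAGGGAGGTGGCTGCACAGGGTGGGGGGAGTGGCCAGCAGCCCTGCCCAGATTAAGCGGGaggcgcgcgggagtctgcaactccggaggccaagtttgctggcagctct
Col4a1: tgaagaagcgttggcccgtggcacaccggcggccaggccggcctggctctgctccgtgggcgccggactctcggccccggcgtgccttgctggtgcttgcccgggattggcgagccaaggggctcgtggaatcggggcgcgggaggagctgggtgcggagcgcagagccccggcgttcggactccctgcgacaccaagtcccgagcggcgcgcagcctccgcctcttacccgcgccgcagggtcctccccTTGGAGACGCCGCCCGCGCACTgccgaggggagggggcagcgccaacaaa
Neither window held GCGTGGGCG or GCGGGGGCG.

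Col4a1 (ENSMUSG00000031502, chr8:11198423-11312826, minus strand) and Col4a2 (ENSMUSG00000031503, chr8:11312805-11449287, plus strand), whose chains make the network common to most basement membranes, were not called in any Cre or Egr1cKO comparison. Col4a1 had 49.0, 59.9 and 66.7 CPM in female Egr1cKO, against 40.3, 39.3 and 54.6 CPM in female Egr1cKO control, with 58.0, 48.8 and 66.9 CPM in female Cre control, against 46.9, 44.4 and 57.5 CPM in female wild type. Male values were 72.1, 71.6 and 60.6 CPM in Egr1cKO, against 53.0, 64.0 and 47.0 CPM in Egr1cKO control, and 40.9, 78.7 and 71.4 CPM in Cre control, against 60.4, 37.5 and 68.2 CPM in wild type. The groups of both sexes overlapped, with averaged log2 fold changes of 0.31 (SE 0.162, edgeR adjusted p = 0.241) in females, 0.29 without female wild type replicate 1, and 0.26 (SE 0.162, edgeR adjusted p = 0.443) in males. Col4a2 had 42.8, 33.0 and 64.6 CPM in female Egr1cKO, against 37.4, 32.7 and 37.2 CPM in female Egr1cKO control, with 39.3, 31.9 and 46.7 CPM in female Cre control, against 40.5, 25.7 and 32.5 CPM in female wild type. In male libraries it had 42.0, 41.3 and 37.9 CPM in Egr1cKO, against 34.7, 39.6 and 33.8 CPM in Egr1cKO control, and 29.5, 55.2 and 38.9 CPM in Cre control, against 40.1, 26.9 and 41.7 CPM in wild type. Its groups overlapped too, at 0.32 (SE 0.169, edgeR adjusted p = 0.236) in females, 0.41 without that library, and 0.17 (SE 0.169, edgeR adjusted p = 0.68) in males. The X-linked Col4a5 and Col4a6 were not called either, at log2 fold changes of 0.20 and 0.32 in females, 0.34 and 0.13 without that library, and 0.41 and 0.98 in males. Of the 6 type IV genes, 0 were called higher in either sex, 2 lower in females, 1 without that library, and 1 lower in males. The annotated exons of Col4a3 share 5.65% of their length with C430014B12Rik, which averaged 0.54 CPM.

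Among fibril-associated collagens, Col9a2 was higher with Cre in both sexes, Col9a3 higher in females and Col16a1 lower in males. Col9a2 (ENSMUSG00000028626, chr4:121039385-121055322, plus strand) and Col9a3 (ENSMUSG00000027570, chr2:180597790-180622189, plus strand) encode type IX chains, which decorate type II fibrils in cartilage. Col9a2 measured 21.7, 18.2 and 8.32 CPM in female Egr1cKO, against 7.26, 8.54 and 5.99 CPM in female Egr1cKO control. Female Cre control had 13.3, 16.0 and 15.8 CPM, against 9.98, 6.12 and 8.90 CPM in female wild type. Female Egr1cKO replicate 3 lay among the Cre-free libraries, and the other Cre-carrying females lay above them. In males it had 10.5, 9.34 and 11.7 CPM in Egr1cKO, against 5.36, 5.24 and 6.13 CPM in Egr1cKO control, and 13.7, 9.35 and 13.2 CPM in Cre control, against 3.21, 9.65 and 5.57 CPM in wild type. Male wild type replicate 2 passed the lowest Egr1cKO and Cre control libraries. By edgeR the averaged log2 change of Col9a2 stood at 0.999 (SE 0.241, edgeR adjusted p = 0.0114) in females, called in 12 of 12 fits that left out 1 library and 1.07 (SE 0.249, edgeR adjusted p = 0.00308) without female wild type replicate 1. In males it was 0.94 (SE 0.242, edgeR adjusted p = 0.0374), called in 2 of 12 fits, those without male Cre control replicate 2 or male wild type replicate 2, with an edgeR adjusted p of up to 0.107 without male Egr1cKO control replicate 1.

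Col9a3 had 13.1, 7.78 and 15.9 CPM in female Egr1cKO, against 7.91, 5.42 and 8.72 CPM in female Egr1cKO control. Female Cre control had 8.05, 11.2 and 8.35 CPM, against 3.21, 3.58 and 4.82 CPM in female wild type. The Cre control libraries stood above wild type without overlap, and Egr1cKO replicate 2 lay among the Egr1cKO controls. In males it had 3.99, 6.20 and 4.16 CPM in Egr1cKO, against 3.12, 4.10 and 2.98 CPM in Egr1cKO control, and 1.601, 6.71 and 4.35 CPM in Cre control, against 4.32, 4.09 and 3.07 CPM in wild type. The male groups overlapped. Averaged, Col9a3 changed on the log2 scale by 0.99 (SE 0.281, edgeR adjusted p = 0.0281) in females, 0.93 (SE 0.293, edgeR adjusted p = 0.0245) without female wild type replicate 1, and 0.32 (SE 0.282, edgeR adjusted p = 0.639) in males. The female call was lost without female Cre control replicate 2, female Egr1cKO replicate 3, female Egr1cKO control replicate 2 or female wild type replicate 2, with an edgeR adjusted p of up to 0.0827 without Egr1cKO replicate 3. Col9a3 shares 6.07% of its exon length with Tcfl5, and without strand such reads cannot be told apart.

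Col16a1 (ENSMUSG00000040690, chr4:130047840-130099283, plus strand) encodes a collagen found beside fibrils and microfibrils. Its levels were 14.3, 11.5 and 12.4 CPM in male Egr1cKO, against 21.4, 22.9 and 45.1 CPM in male Egr1cKO control. Male Cre control had 14.1, 11.6 and 16.0 CPM, against 18.3, 34.8 and 44.0 CPM in male wild type. All Cre-carrying males lay under all Cre-free ones. In females it had 34.1, 38.2 and 50.2 CPM in Egr1cKO, against 39.5, 45.2 and 40.7 CPM in Egr1cKO control, and 36.4, 40.6 and 40.2 CPM in Cre control, against 72.3, 21.4 and 21.02 CPM in wild type. The female Egr1cKO and Egr1cKO control libraries overlapped, and wild type lay on both sides of Cre control because replicate 1 was high. Averaged over both title series, the log2 difference of Col16a1 came to -1.23 (SE 0.265, edgeR adjusted p = 0.0146) in males and 0.00 (SE 0.259, edgeR adjusted p = 1) in females, where it was 0.42 (SE 0.19, edgeR adjusted p = 0.117) without female wild type replicate 1. The male call was lost without male Egr1cKO replicate 2 or male Egr1cKO control replicate 3, at an edgeR adjusted p of up to 0.0601 without Egr1cKO replicate 2. Of the 8 fibril-associated genes, 2 were higher and 0 lower in females, and 1 was higher and 1 lower in males. The other 5 were not called in either sex, with or without female wild type replicate 1. Col20a1 had -0.30 on the log2 scale in females, turned to 0.32 without that library, and had -0.82 in males. It shares 1.54% of its exon length with BX649560.1, which averaged 16.3 CPM. In males BX649560.1 was lower with Cre, at -0.91 (edgeR adjusted p = 0.0203). In females against males with Cre it was higher, at 1.16 (edgeR adjusted p = 0.000466). Col19a1 had 0.46 in females, 0.21 without it, and 1.62 in males. In the same order Col14a1 had 0.17, 0.21 and 0.33, Col9a1 0.40, 0.35 and 0.60, and Col12a1 -0.20, -0.33 and 1.33. The cartilage and bone markers Acan, Comp, Matn1, Sp7, Ibsp and Bglap summed to between 0.428 and 4.87 CPM in any library, and Matn1 was at 0 in all libraries of 4 of the 8 groups.

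The transmembrane collagens Col25a1 and Col13a1 were higher with Cre in males. Col25a1 (ENSMUSG00000058897, chr3:130131501-130599877, plus strand) encodes a neuronal membrane collagen needed for motor innervation in mice, and Col13a1 (ENSMUSG00000058806, chr10:61838236-61979108, minus strand) one known from the neuromuscular junction. Col25a1 had 86.1, 102 and 68.0 CPM in male Egr1cKO, against 32.5, 78.7 and 36.8 CPM in male Egr1cKO control. Male Cre control had 51.6, 95.9 and 107 CPM, against 32.7, 45.2 and 43.9 CPM in male wild type. Male Egr1cKO control replicate 2 lay among the Egr1cKO libraries, while Cre control and wild type did not overlap. In females it had 153, 99.97 and 99.4 CPM in Egr1cKO, against 77.6, 72.3 and 85.4 CPM in Egr1cKO control, and 101, 101 and 99.8 CPM in Cre control, against 56.3, 87.1 and 99.1 CPM in wild type. Each female Cre-carrying library was above each Cre-free one, with Egr1cKO replicate 3 only just above wild type replicate 3. On the log2 scale the averaged change of Col25a1 amounted to 0.92 (SE 0.204, edgeR adjusted p = 0.0158) in males and 0.45 (SE 0.203, edgeR adjusted p = 0.164) in females, with 0.35 (SE 0.212, edgeR adjusted p = 0.272) without female wild type replicate 1. The male call held in 8 of 12 fits that left out 1 library and was lost without male Cre control replicate 3, male Egr1cKO replicate 2, or male Egr1cKO control replicate 1 or 3, with an edgeR adjusted p of up to 0.0642 without Egr1cKO replicate 2.

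Col13a1 measured 58.3, 69.5 and 56.1 CPM in male Egr1cKO, against 17.97, 50.5 and 21.8 CPM in male Egr1cKO control. Male Cre control had 32.5, 70.8 and 72.9 CPM, against 34.2, 28.5 and 28.1 CPM in male wild type. The Egr1cKO libraries stood above their controls without overlap, and Cre control replicate 1 lay among the wild type libraries. In females it had 99.5, 71.9 and 85.9 CPM in Egr1cKO, against 55.0, 36.3 and 58.4 CPM in Egr1cKO control, and 42.4, 75.3 and 62.5 CPM in Cre control, against 39.5, 43.6 and 59.6 CPM in wild type. Female Egr1cKO stood above its controls without overlap, and Cre control overlapped wild type. The averaged change in log2 units came to 0.99 (SE 0.227, edgeR adjusted p = 0.0205) in males and 0.56 (SE 0.225, edgeR adjusted p = 0.116) in females, with 0.50 (SE 0.259, edgeR adjusted p = 0.19) without female wild type replicate 1. The male call held in 5 of 12 fits that left out 1 library and was lost without male Cre control replicate 2 or 3, male Egr1cKO replicate 2, male Egr1cKO control replicate 1 or 3, or male wild type replicate 2 or 3, with an edgeR adjusted p of up to 0.0748 without Egr1cKO control replicate 3. With genes detected at equal depth as a covariate it was lost too (edgeR adjusted p = 0.0538). Col23a1 was not called, at 0.63 (SE 0.327, edgeR adjusted p = 0.238) in females, 0.51 without female wild type replicate 1, and 1.10 (SE 0.331, edgeR adjusted p = 0.0901) in males. Neither was Col17a1, a collagen of hemidesmosomes, whose female Egr1cKO level of 2.84, 5.37 and 37.7 CPM rested on replicate 3; its averaged log2 values were 1.34 in females, 1.45 without that wild type library, and -0.66 in males.

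None of the type VI, short-chain, multiplexin, anchoring fibril or other collagen genes was called in an averaged effect with all libraries. Col18a1 (ENSMUSG00000001435, chr10:77052178-77166548, minus strand) encodes a heparan sulfate collagen of vascular and epithelial basement membranes from which endostatin is cleaved. It measured 31.1, 23.0 and 23.5 CPM in female Egr1cKO, against 28.5, 20.3 and 22.2 CPM in female Egr1cKO control, with 22.2, 35.1 and 27.2 CPM in female Cre control, against 27.5, 22.2 and 30.0 CPM in female wild type. Male libraries had 42.4, 44.6 and 29.4 CPM in Egr1cKO, against 34.9, 37.9 and 32.2 CPM in Egr1cKO control, and 44.5, 53.6 and 52.7 CPM in Cre control, against 24.1, 34.3 and 32.5 CPM in wild type. Of the 4 pairs only male Cre control and wild type did not overlap, and the log2 fold changes were 0.11 (SE 0.15, edgeR adjusted p = 0.707) in females, 0.12 without female wild type replicate 1, and 0.44 (SE 0.149, edgeR adjusted p = 0.122) in males. The main type VI genes Col6a1, Col6a2 and Col6a3, whose chains form beaded microfibrils, had log2 fold changes of 0.29, 0.59 and 0.52 in females and 0.32, 0.49 and 0.55 in males, and the low Col6a4 -1.67 and -0.69. In the fit without female wild type replicate 1, Col6a1 was called in females, at 0.60 (SE 0.213, edgeR adjusted p = 0.0484), and Col6a2, Col6a3 and Col6a4 were not, at 0.71, 0.42 and -1.17. Col7a1, which encodes the anchoring fibrils of skin, had 0.61 (SE 0.37, edgeR adjusted p = 0.313) in females, 1.13 (SE 0.332, edgeR adjusted p = 0.0165) without female wild type replicate 1, and -1.06 (SE 0.373, edgeR adjusted p = 0.136) in males. The short-chain genes Col8a1 and Col8a2 had -0.41 and 0.48 in females and 1.23 and 0.93 in males, Col15a1 had 0.03 and 0.39, Col26a1 0.05 and 0.29, and Col28a1 -0.38 and 0.87. Without that wild type library the female values were -0.65 for Col8a1, 0.30 for Col8a2, -0.02 for Col15a1, where the sign turned, 0.38 for Col26a1 and -0.34 for Col28a1, again with no call.

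Whether floxed Egr1 added to the Cre effect was tested as the Egr1cKO effect minus the Cre effect. These effects come from different title series. An effect of floxed Egr1 beyond Cre and a difference between the series in the Cre effect cannot be told apart. None of the 40 collagen genes was called in females, beside 0% of all genes higher and 0.00456% lower, or in males, beside 0% in both directions, with edgeR. At an unadjusted p under 0.05 there were 3 in females, beside 9.81% of all genes, and 2 in males, beside 1.06%, and DESeq2 called 0 and 0. In females the smallest p was that of Col4a3, whose Egr1cKO effect differed from its Cre effect by a log2 value of -1.35 (SE 0.42, edgeR adjusted p = 0.339). In males it was that of Col5a1, at -1.34 (SE 0.457, edgeR adjusted p = 1). Without female wild type replicate 1, 5 collagen genes were lower in the female comparison, beside 2.48% of all genes: Col4a3 at -1.75 (SE 0.395, edgeR adjusted p = 0.00976), Col24a1 at -2.53 (SE 0.567, edgeR adjusted p = 0.0157), Col20a1 at -1.62 (SE 0.401, edgeR adjusted p = 0.0163), Col27a1 at -2.30 (SE 0.551, edgeR adjusted p = 0.0228) and Col4a4 at -1.27 (SE 0.379, edgeR adjusted p = 0.0437). The counts in females thus depended on 1 wild type library.

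Whether Cre-carrying had another effect in females than in males was tested as the difference of the averaged effects. EdgeR called 0 of the 40, where 2.06% of all genes were called, 0.748% as higher and 1.31% as lower. An unadjusted p under 0.05 was found for 8, beside 21.9% of all genes; DESeq2 called 4, and edgeR called 1 without female Egr1cKO replicate 1 or without male Egr1cKO replicate 3. Col16a1 had the smallest p, with a female minus male difference of 1.23 (SE 0.369, edgeR adjusted p = 0.0706). Without female wild type replicate 1, 7 genes were called higher, beside 8.72% of all genes, and 1 lower, beside 10.9%. The higher ones were Col16a1 at 1.65 (SE 0.263, edgeR adjusted p = 0.000103), Col24a1 at 2.15 (SE 0.385, edgeR adjusted p = 0.000856), Col27a1 at 2.11 (SE 0.376, edgeR adjusted p = 0.000967), Col7a1, Col2a1, Col20a1 and Col11a2, and the lower one was Col8a1 at -1.89 (SE 0.513, edgeR adjusted p = 0.00921).

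The mitochondrial share of counts was higher in female Egr1cKO than in female Egr1cKO control without overlap of the libraries, and the other pairs of groups overlapped. It was 9.43% ± 0.884 in female Egr1cKO, against 4.90% ± 1.76 in female Egr1cKO control, and 6.08% ± 0.586 in female Cre control, against 4.96% ± 4.42 in female wild type (SD, n = 3 each), where replicate 1 had 10.1% and replicates 2 and 3 had 2.14% and 2.695%. In males it was 3.33% ± 0.524 in Egr1cKO, against 2.97% ± 0.693 in Egr1cKO control, and 2.51% ± 0.598 in Cre control, against 3.45% ± 1.36 in wild type. With that share as a covariate, the averaged effect in females again called 8 genes, 7 of them the same, and the averaged effect in males called 14, all of the 8 among them.

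**Figure D4:**
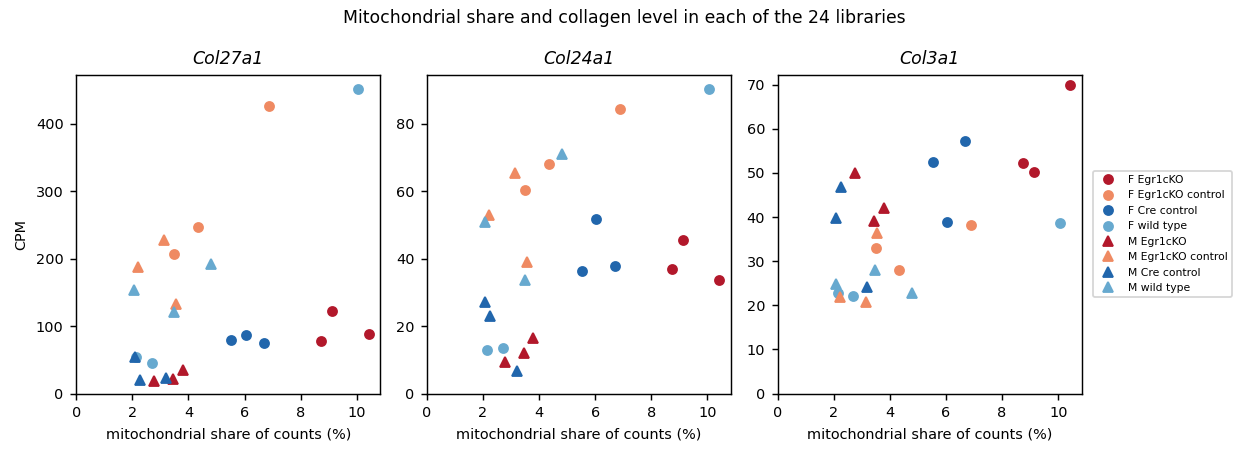
Each point is 1 of the 24 libraries, circles for females (F) and triangles for males (M), with the mitochondrial share of counts on the horizontal axis and the CPM of Col27a1, Col24a1 or Col3a1 on the vertical axis, all axes from 0. Female wild type replicate 1, at 10.1%, stands at 451 CPM of Col27a1 and 90.4 CPM of Col24a1, while female Egr1cKO libraries at 8.73% to 10.4% have 78.5 to 123 CPM of Col27a1.

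Females differed from males in collagen mRNA both without and with Cre. Without Cre, edgeR called 4 genes, beside 1.5% of all genes. Females had more Col1a2, Col25a1 and Col11a1, which are 7.5% of the 40, beside 0.661% of all genes, and less Col4a3, which is 2.5%, beside 0.839%. The female minus male value on the log2 scale came to 0.89 (SE 0.169, edgeR adjusted p = 0.00327) for Col1a2, 0.83 (SE 0.204, edgeR adjusted p = 0.0349) for Col25a1, 0.81 (SE 0.205, edgeR adjusted p = 0.0409) for Col11a1 and -0.89 (SE 0.207, edgeR adjusted p = 0.0221) for Col4a3. With female wild type replicate 1 left out these were 0.75, 0.93, 0.57 and -1.09. Col1a2 averaged 402 CPM in female and 219 CPM in male Egr1cKO control, and 367 CPM in female and 195 CPM in male wild type, and all Cre-free females lay above all Cre-free males. It was called in 12 of 12 fits that left out 1 library, Col4a3 in 8, Col11a1 in 4 and Col25a1 in 2. The count ran from 1, without female Egr1cKO control replicate 1 or 2, male Egr1cKO control replicate 1 or male wild type replicate 1, and 2, without male Egr1cKO control replicate 3 or male wild type replicate 3, to 6 without male Egr1cKO control replicate 2. Without female wild type replicate 1 it was 5: Col19a1 joined the higher genes at 1.78 (SE 0.425, edgeR adjusted p = 0.0185), Col4a4 joined the lower ones at -0.91 (SE 0.189, edgeR adjusted p = 0.0053), and Col11a1 was lost.

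With Cre, 14 of the 40 genes were higher in females, which is 35%, beside 12% of all genes, and 3 were lower, which is 7.5%, beside 15.9%. Fibrillar genes made up 9 of the 14: Col11a2 at 1.35 (SE 0.253, edgeR adjusted p = 0.000587), Col1a2 at 0.87 (SE 0.169, edgeR adjusted p = 0.000797), Col2a1 at 1.30 (SE 0.305, edgeR adjusted p = 0.00382), and Col5a1, Col11a1, Col27a1, Col5a3, Col24a1 and Col5a2. The others were the fibril-associated Col16a1 at 1.59 (SE 0.267, edgeR adjusted p = 0.000287), Col9a3 and Col20a1, the transmembrane Col17a1 at 2.12 (SE 0.506, edgeR adjusted p = 0.00428), or 1.17 without female Egr1cKO replicate 3, and the anchoring fibril gene Col7a1. The 11 fibrillar genes had a median of 0.93, beside -0.10 for all genes, and none was called lower. Lower in females were Col18a1 at -0.71 (SE 0.15, edgeR adjusted p = 0.00152), Col4a4 at -0.70 (SE 0.235, edgeR adjusted p = 0.0289) and Col6a4 at -3.56 (SE 0.868, edgeR adjusted p = 0.00419). Col16a1 averaged 40.8 CPM in female and 12.7 CPM in male Egr1cKO, and 39.1 CPM in female and 13.9 CPM in male Cre control, without overlap. No overlap between the sexes with Cre was found for 9 genes higher in females, beside 6.63% of all genes, and 1 lower, beside 8.45%; without Cre these were 1, beside 0.547%, and 1, beside 0.921%. Col6a4, a low gene, ran from 0 to 0.659 CPM in the 6 female libraries with Cre and from 1.40 to 3.01 CPM in the 6 male ones, and from 0 to 0.993 CPM in Cre-free females and from 1.36 to 6.29 CPM in Cre-free males. With 0 counts in 4 of those 6 female libraries its fitted log2 value is no exact fold, and it ran from -6.24, without female Cre control replicate 3, to -3.26 over the 12 fits that left out 1 library, with -5.89 without female Egr1cKO replicate 3.

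An unadjusted p under 0.05 was found for 20 of the 40, beside 39.4% of all genes; without Cre it was 12, beside 12.5%. Of the 17 calls with Cre, 11 held in 12 of 12 fits that left out 1 library; Col24a1, Col5a3, Col20a1, Col7a1, Col4a4 and Col5a2 did not, and without male Egr1cKO replicate 1 all 6 were lost and the count was lowest, at 11. Library quality measures differed between the sexes with Cre. Cre-carrying females had 19299 ± 1033 (Egr1cKO) and 20991 ± 772 (Cre control) genes detected at equal depth, against 25171 ± 433 and 23559 ± 1789 in the same groups of males (SD, n = 3 each). These overlapped only through female Cre control replicate 3, at 21662, and male Cre control replicate 1, at 21538. Mitochondrial shares ran from 5.52% to 10.4% in Cre-carrying females and from 2.08% to 3.79% in Cre-carrying males, without overlap. Fits with either measure as covariate can therefore hardly separate sex from library quality. With genes detected as a covariate 3 collagen genes were called, Col4a4, Col6a4 and Col9a3, beside 2.02% of all genes. With the mitochondrial share 2 were called, Col4a4 and Col6a4, beside 1.78%, so that calls over all genes fell too. No fibrillar gene kept its call with either covariate. Col27a1, which was 1.63 (SE 0.462, edgeR adjusted p = 0.0149), became -0.0167 with the mitochondrial share as covariate, Col20a1 became -0.0732 and Col11a1 -0.0046.

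**Figure D5:**
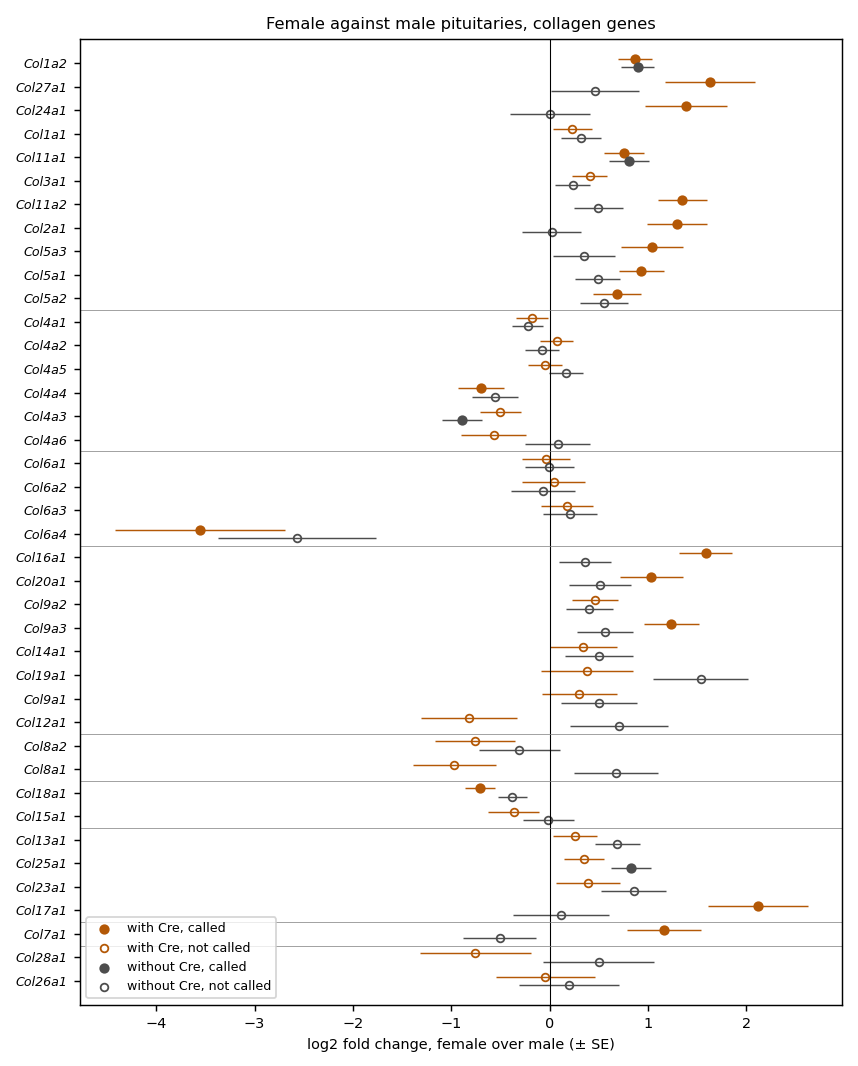
Points give the log2 fold change of females over males, with bars of 1 standard error, in pituitaries with Cre (Egr1cKO and Cre control) and without (Egr1cKO control and wild type); filled points are called by edgeR. In the fibrillar block 9 of the 11 points with Cre are filled, all to the right of 0.

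The other genes of collagen are read against the shares of all genes called with Cre, which were 3.29% higher and 5.56% lower in females and 0.775% and 1.38% in males. Among 33 genes of collagen synthesis and processing, 4 were higher and 2 lower with Cre in females, with a median log2 fold change of 0.24, and 0 higher and 2 lower in males, with a median of 0.10, beside all-gene medians of -0.06 and 0.02. The female counts without female wild type replicate 1 were 7 and 4, where 7.56% of all genes were called higher and 11.6% lower, with a median of 0.21; the 6 genes called before were among them. Pcolce2, an enhancer of procollagen C-terminal trimming, fell in both sexes: it averaged 4.44 ± 3.37 CPM in female Egr1cKO, against 19.7 ± 3.54 CPM in female Egr1cKO control, and 4.54 ± 0.518 CPM in female Cre control, against 14.2 ± 5.22 CPM in female wild type (SD, n = 3 each). In males it had 7.58 ± 0.958 CPM in Egr1cKO, against 22.5 ± 6.34 CPM in Egr1cKO control, and 6.87 ± 1.95 CPM in Cre control, against 20.5 ± 3.64 CPM in wild type. On the log2 scale Pcolce2 changed by -1.89 (SE 0.264, edgeR adjusted p = 9.08e-05) in females and -1.57 (SE 0.258, edgeR adjusted p = 0.00104) in males. Female Fkbp10, a chaperone of procollagen folding, rose by 0.74 on that scale (SE 0.187, edgeR adjusted p = 0.0149), Adamts2, which removes procollagen N-propeptides, by 1.40 (SE 0.358, edgeR adjusted p = 0.0179), and Plod3, a lysyl hydroxylase, by 0.48 (SE 0.129, edgeR adjusted p = 0.0201). The lysyl oxidase family gene Loxl3 rose by 1.06 (SE 0.302, edgeR adjusted p = 0.0292) and the collagen galactosyltransferase gene Colgalt1 had -0.56 (SE 0.153, edgeR adjusted p = 0.0224). In males P4ha2, a prolyl hydroxylase subunit, had -0.84 (SE 0.1254, edgeR adjusted p = 0.000457), with 32.9 ± 3.58 CPM in Egr1cKO, against 62.8 ± 8.88 CPM in Egr1cKO control. P3h4 (0.61) and Plod2 (-0.39) missed the threshold in males, with edgeR adjusted p of 0.058 and 0.0824. Without that library the female values were -1.73 for Pcolce2, 0.72 for Fkbp10, 1.32 for Adamts2, 0.46 for Plod3, 1.21 for Loxl3 and -0.70 for Colgalt1.

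Among 23 partners of collagen fibrils, 5 were higher and 0 lower in females, with a median of 0.46, and 3 higher and 0 lower in males, with a median of 0.44. In females they were 7 higher and 0 lower without female wild type replicate 1, with a median of 0.37. Aebp1, which encodes a collagen-binding matrix protein, rose by 2.18 on the log2 scale in females (SE 0.172, edgeR adjusted p = 2.51e-08), Fbn2 by 1.15 (SE 0.259, edgeR adjusted p = 0.00731), Mfap4 by 0.77 (SE 0.216, edgeR adjusted p = 0.0264) and decorin, Dcn, by 0.61 (SE 0.185, edgeR adjusted p = 0.0388). Sparc, a collagen-binding glycoprotein gene, rose by 0.42 (SE 0.131, edgeR adjusted p = 0.0444). These 5 were also called without that library, at 2.18 for Aebp1, 1.12 for Fbn2, 0.79 for Mfap4, 0.46 for Dcn and 0.36 for Sparc, joined by Eln at 1.06 and Mfap5 at 1.25. In males Fbln2 rose by 1.37 on the same scale (SE 0.309, edgeR adjusted p = 0.019), Dcn by 0.75 (SE 0.185, edgeR adjusted p = 0.0305) and Fbn1 by 0.86 (SE 0.229, edgeR adjusted p = 0.0464), and Lum had 0.63 (edgeR adjusted p = 0.108). Dcn averaged 144 ± 13.2 CPM in female Egr1cKO, against 81.4 ± 21.7 CPM in female Egr1cKO control, and 181 ± 13.3 CPM in male Egr1cKO, against 108 ± 24.1 CPM in male Egr1cKO control.

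Of 15 basement membrane partners, 1 was called in each sex. In females Nid2, a laminin and type IV linker, had -0.69 (SE 0.22, edgeR adjusted p = 0.0486), and in males the laminin chain gene Lamb1 had 0.75 (SE 0.2, edgeR adjusted p = 0.0443). Lamb2 (0.41), Lama4 (-0.71) and Lama5 (0.32) in females, and Lamc1 (0.49) and Lama2 (0.87) in males, were among those with the next smallest p and were not called. Leaving out female wild type replicate 1, Nid2 had -0.76 (SE 0.221, edgeR adjusted p = 0.0165) in females, and Lama1 at 0.72 (SE 0.198, edgeR adjusted p = 0.0115) and Lama5 at 0.38 (SE 0.127, edgeR adjusted p = 0.0352) were called higher, while Lamb2 had 0.33 and Lama4 -0.71. In the female against male comparison with Cre, 0 of the 15 were higher and 9 lower, with a median of -0.56, beside 12% of all genes higher, 15.9% lower and a median of -0.10; with genes detected or the mitochondrial share as covariate 1 was lower, the laminin chain gene Lama1, and the medians were -0.08 and -0.16. No collagen receptor gene of the 9 tested was called in either sex; the smallest p belonged to the integrin gene Itga10, at 0.77 in females and -0.97 in males (edgeR adjusted p = 0.0903 and 0.0786), and to Lair1, at -0.66 and -0.86, with Itga1 and Itgb1 next. The female minus male difference of the Itga10 effects was called, at 1.74 (SE 0.409, edgeR adjusted p = 0.033), and Itga10 was higher in females than in males with Cre, at 1.86 (SE 0.296, edgeR adjusted p = 0.00012). In that comparison Itgb1 at -1.003 (edgeR adjusted p = 0.00143) and Itga2 at -1.89 (edgeR adjusted p = 0.0235) were lower, and with either covariate 0 of the 9 were called, beside the 2.02% and 1.78% of all genes given above. The fit without female wild type replicate 1 called Itga10 in females at 1.14 (SE 0.253, edgeR adjusted p = 0.00223) and Itgb1 at -0.52 (SE 0.126, edgeR adjusted p = 0.004), and Lair1 had -0.32. Of 13 genes of collagen breakdown, the membrane protease gene Mmp14 had 0.71 (SE 0.139, edgeR adjusted p = 0.00244) and the gelatinase gene Mmp2 0.91 (SE 0.246, edgeR adjusted p = 0.0213) in females, both higher, and the protease inhibitor gene Reck -0.70 (SE 0.153, edgeR adjusted p = 0.00549). In males none was called, with Mmp2 at 0.84, Reck at -0.35, Mmp3 at -2.12 and Timp3 at 1.19; in females Mmp3 had -1.66. Without that library Mmp14, Mmp2 and Reck had 0.85, 0.87 and -0.71 in females and kept their calls, Timp3 at -1.77 and Mmp8 at -1.26 were called lower, and Mmp3 had -0.62.

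Markers of cells that make collagen were measured beside it. The 9 fibroblast markers summed to medians of 71.7 CPM in female Egr1cKO, against 60.9 in female Egr1cKO control, and 72.7 in female Cre control, against 53.4 CPM in female wild type. In males the medians were 71.7 in Egr1cKO, against 53.0 in Egr1cKO control, and 65.7 in Cre control, against 43.6 CPM in wild type. None of the 9 was called in an averaged effect, and 8 had positive values in females and 7 in males. The group ranges of that sum were 64.0 to 78.0 CPM in male Egr1cKO, against 41.9 to 63.1 in male Egr1cKO control, and 55.2 to 82.1 in male Cre control, against 32.1 to 52.0 CPM in male wild type, without overlap in either pair. In females they were 70.7 to 75.6 CPM in Egr1cKO, against 41.5 to 62.9 in Egr1cKO control, and 47.5 to 84.5 in Cre control, against 39.3 to 59.9 CPM in wild type, where Egr1cKO and its control did not overlap and Cre control and wild type did. Single genes higher without overlap were 9.57% of all genes in the female Egr1cKO pair. In the male Egr1cKO and Cre control pairs they were 10.8% and 11.1%. Of 10 endothelial markers 0 were called in an averaged effect in either sex, and of 9 mural markers Pdgfrb was higher in females. In females against males with Cre, Kdr, Plvap and Emcn were lower, beside 15.9% of all genes. They had -1.17, -0.70 and -0.51 (edgeR adjusted p = 0.000655, 0.00355 and 0.00923). Egfl7 was higher there, at 0.61 (edgeR adjusted p = 0.0362), beside 12%. Without Cre only Plvap was called, lower at -0.65 (edgeR adjusted p = 0.0422), beside 0.839%. The library quality limit of the comparison with Cre holds here too. Among 5 pituicyte markers of the posterior lobe, Nkx2-1 and Lhx2 were higher and Vwde lower in females, and Scn7a was higher and Vwde lower in males; their sum had medians of 118 CPM in male Egr1cKO, against 53.4 in male Egr1cKO control, and 152 in male Cre control, against 72.0 CPM in male wild type. In females those medians were 217 CPM in Egr1cKO, against 152 in Egr1cKO control, and 177 in Cre control, against 166 CPM in wild type. That sum includes Vwde, which moved against the other called genes of this list in both sexes. Of the 4 stem and folliculostellate markers, Sox2 was higher in females. Their sum, like that of the fibroblast markers, overlapped only between female Cre control and wild type. It was 87.8 to 95.7 CPM in male Egr1cKO, against 57.9 to 86.6 in male Egr1cKO control. Male Cre control had 87.4 to 92.0 CPM, against 50.2 to 71.6 in male wild type. Female Egr1cKO had 73.4 to 110 CPM, against 54.2 to 63.7 in its control. Of the 6 leukocyte markers, C1qa was higher in females, and the skeletal muscle marker Tnnt3 was lower there; no Schwann cell marker was called with all libraries. These female calls were kept without female wild type replicate 1. There the fibroblast marker Mfap5, the endothelial Egfl7 and the pituicyte Rax were among those also higher. The muscle marker Myh1, not tested with all libraries, was lower in that fit. The 4 muscle markers summed to between 0 and 18.3 CPM in female wild type, with a median of 2.24 CPM. Each of the 4 was at 0 in at least 1 of those libraries, so the Tnnt3 and Myh1 calls rest on few reads. The part of cell makeup in the collagen values was not tested.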

How the data were processed

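RNA of 24 mouse pituitary samples, 3 in each of 8 groups, was sequenced as non-stranded polyA libraries, per the labels' protocols. The authors trimmed reads with Trim Galore 3.8.2, checked them with FastQC and aligned them with STAR 2.7.9 to GRCm38, per the submitters' processing notes. Sources used here do not name the tool and annotation behind the deposited raw counts per Ensembl gene. Gene names, classes of transcript and exon lengths came from GENCODE M21 (GRCm38), which matched 35077 of 35191 gene IDs and left 114 unmatched. Start regions came from RefSeq tables of GRCm38.p6.

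From the counts, CPM was computed on library totals scaled by TMM, and edgeR 4.0.16 in R 4.3.3 was run with filterByExpr, a model of 8 group means with 16 residual degrees of freedom, robust quasi-likelihood tests and Benjamini-Hochberg adjustment over 21927 genes, with 0.05 as threshold. The median biological coefficient of variation was 0.334. There were 11 comparisons, and the procedure was tested on simulated data. Libraries of a pair differed by more than sampling noise, since the chi-square of their counts per degree of freedom was at least 16.3 in any pair of a group. Alternatives were median-of-ratios factors, library totals without TMM, no filter on low counts, a minimum mean of 10 CPM, a covariate of genes detected at equal depth or of the mitochondrial share, DESeq2 1.42.0, only the groups compared, and leaving out each library in turn.

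The collagen genes and the other gene lists were chosen with earlier results of these data known. Values in every library are given for the 12 genes with the smallest p among those called in an Egr1cKO, Cre or averaged effect or in the interaction, and for Col1a1, Col4a1, Col4a2 and Col18a1. Of each other list up to 4 genes with the smallest p in each sex are named, and the called markers, except items that are not reported here. Loxl3, Colgalt1, Sparc, Itga2, the genes called only without female wild type replicate 1, and members described only by a fold change, were named after their values were seen. So were Plvap, Kdr, Emcn, Egfl7 and BX649560.1. Reads shared by overlapping genes cannot be told apart without strand.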

Additional observations from a re-analysis of the deposited data

How the results depend on the processing

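Of 771 values of called collagen genes recomputed under the alternatives, 607 kept their direction and side of the threshold, 161 kept the direction and lost the call, and 3 changed sign. Those 3 were in the female against male comparison with Cre when the mitochondrial share was a covariate: Col20a1 at -0.0732, Col27a1 at -0.0167 and Col11a1 at -0.0046. The number of collagen genes called moved by more than 1.5 times as follows, and the cause was not tested. For the Egr1cKO effect in females, 2 in the reported fit, it was 1 with library totals without TMM, 11 with no filter on low counts, 1 at a minimum mean of 10 CPM, 5 with genes detected as covariate, 9 with the mitochondrial share, 4 with DESeq2 and 6 with only the groups compared. In males, with 0 in the reported fit, it was 8 with no filter, 5 with the mitochondrial share, 2 with DESeq2 and 5 with only the groups compared. The Cre effect in females, with 0, gave 4 with no filter, 1 with either covariate and 2 with DESeq2. In males, with 1, it gave 0 with library totals, 8 with no filter, 2 with the mitochondrial share, 4 with DESeq2 and 2 with only the groups compared. The averaged effect in males, with 8, gave 18 with no filter, 14 with the mitochondrial share, 13 with DESeq2 and 18 with only the groups compared, whereas that in females stayed between 6 and 12. The interaction, with 0, gave 9 with no filter and 4 with DESeq2; a fit of only the groups compared is the same fit there, since it uses all groups. The sex difference without Cre, with 4, gave 8 with no filter and 1 with only the groups compared. With Cre, with 17, it gave 10 at a minimum mean of 10 CPM, where 23 collagen genes were tested, 3 with genes detected and 2 with the mitochondrial share. The Egr1cKO effect beyond Cre in females, with 0, gave 4 with the mitochondrial share.

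Leaving out 1 library at a time, the counts ran from 1 to 2 for the Egr1cKO effect in females and 0 to 1 in males, 0 to 7 for the Cre effect in females and 0 to 0 in males, 5 to 11 for the averaged effect in females and 2 to 12 in males, 0 to 8 for the interaction, 1 to 6 for the sex difference without Cre and 11 to 17 with Cre, and 0 to 5 for the Egr1cKO effect beyond Cre in females and 0 to 0 in males. Over all genes, library totals without TMM changed the split of higher to lower calls to 790 and 178 in the averaged effect in males, beside 170 and 303, to 734 and 810 in females, beside 721 and 1219, to 29 and 12 for the Cre effect in males, beside 8 and 43, to 134 and 68 in females, beside 81 and 184, to 82 and 544 for the interaction, beside 164 and 287, and to 1366 and 5199 for the sex difference with Cre, beside 2637 and 3476. It moved the median of all genes by 0.33 for the Cre effect in males, by 0.12 for the Egr1cKO effect in males, by -0.20 for the interaction and by -0.21 for the sex difference with Cre. The number of collagen genes kept was 40 with plain totals, 41 at 0.5 CPM and 38 at 2 CPM. No paired analysis was possible because the title numbers of the libraries are not shared between groups. With 3 libraries a group, genes near 1 CPM such as Col6a4 rest on few reads.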
